A study of Mus musculus with 18 samples.

Results

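A set of 9 genes picked as early responders to IL-6 in mouse hepatocytes, beside the reference responders Socs3 and Cebpd, is described here on all 18 arrays of a time course. They are Gcnt2, Efna1, Steap4, Pim3, Pim1, Bcl3, Tifa, Cdc42ep4 and Frat2. These are 9 of the 18193 genes measured, and 22 of the 45101 probe sets carry their names. They were picked by name with the difference between IL-6 and control over the first 4 hours in view, so that difference is given as a description with no test. For Pim1 the sign of that difference depended on which controls were used, so the arrays of those hours do not settle the name. The tests concern later hours, whose IL-6 plus HGF arrays were not part of that difference.

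Primary hepatocytes, the parenchymal cells of the liver, came from male C57BL/6N mice aged 8 to 12 weeks. An experiment used the cells of 1 animal, or pooled those of at most 3, on dishes coated with collagen I. All dishes were kept without serum in medium with dexamethasone, a synthetic glucocorticoid, and then starved of it for 4 h before time 0. Recombinant human IL-6 was given at 40 ng/ml from 0 h, and recombinant mouse HGF, the ligand of the receptor Met, was added at 40 ng/ml from 4 h. Untreated dishes were taken at -5 h and at 0, 4, 8, 12 and 24 h (6 arrays). Dishes given only IL-6 were taken at each hour from 1 to 4 h (4 arrays). Those given HGF as well followed hourly from 5 to 10 h and then at 12 and 24 h (8 arrays). Each condition and hour was measured on 1 array, so hours stand in for replicates. Whether dishes shared an animal is not stated, so p-values reflect the spread among these dishes, which may be technical. With 0 arrays of IL-6 alone after 4 h, the later hours of IL-6 and the addition of HGF cannot be told apart.

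IL-6 binds its receptor together with gp130, and the JAK kinases then activate the transcription factor STAT3, which switches on a fast wave of genes in hepatocytes. That wave is known for its feedback inhibitors and for acute-phase genes. The genes described here fall into other roles: enzymes and proteins of the cell surface (Gcnt2, Efna1, Steap4), the serine/threonine kinases Pim1 and Pim3, regulators of NF-kB (Bcl3, Tifa), and regulators of the cytoskeleton and of Wnt signalling (Cdc42ep4, Frat2).

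The 18 arrays had medians of 5.47 to 5.57 in log2 signal, and each correlated with the rest at 0.985 to 0.994 on average. The mean signal of 6 measured hepatocyte markers lay between 11.7 and 13.2 on the 18 arrays, with albumin (Alb) near the top of the scale. Markers of Kupffer cells, the macrophages of the liver, were also detected. Averaged over 15 such genes, the signal ran from 7.16 to 7.30 with IL-6 alone against 7.77 at 0 h and 7.58 at 4 h in control. The untreated array at -5 h had 7.19, within the range of the IL-6 arrays. The same average lay between 7.14 and 7.42 with IL-6 plus HGF against 7.19 to 7.52 in the controls at 8 to 24 h. Of these markers 13 of 15 had negative differences in the first 4 hours (median -0.50, against -0.01 over all genes). In limma 0 of the 15 passed there, in a fit that called 0.022% of all genes higher and 0% lower. At the matched hours of 8, 12 and 24 h, 1 of 15 Kupffer cell markers was higher and 1 lower in limma, and 2 of 6 hepatocyte markers were lower, Hnf4a by -0.67 and Cps1 by -1.48, in a fit that called 2.53% of all genes higher and 6.46% lower. Of the markers of other cells, 1 of 9 endothelial genes was lower, 1 of 4 cholangiocyte genes was higher, and 0 of 7 stellate cell genes and 0 of 4 genes of neutrophils and lymphocytes passed. Without the hour as a block 0 markers of any of these lists passed, with limma adjusted p = 0.121 for Hnf4a and 0.582 for Cps1. Their part in the results was not tested. In a bulk sample, fewer cells of a type and less RNA per cell cannot be told apart.

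STAT dimers bind a palindromic element, and it was searched for as TTCNNNGAA in RefSeq promoters (GRCm38.p6) that run from 250 bases before a start site to 50 after it. All 9 genes matched, with 15 promoters. The element was present in 2 of the 15 (13.3%) and in 2726 of all 32851 promoters (8.3%). The wider form TTCNNNNAA, searched on both strands and overlapping the first, was present in 4 of 15 (26.7%) and in 38.0% of all. The promoters with the strict element belong to Gcnt2 (chr13:40886508-40886807, plus strand, the second of 3 start sites) and Steap4 (chr5:7960222-7960521, plus strand). They are shown 5′ to 3′ with the element in capitals. It begins 227 bases before the start site in Gcnt2 and 116 bases before it in Steap4. A match is a description of the letters, not a site shown to be bound, and the arrays do not show which start site each Gcnt2 probe set reads.
Gcnt2: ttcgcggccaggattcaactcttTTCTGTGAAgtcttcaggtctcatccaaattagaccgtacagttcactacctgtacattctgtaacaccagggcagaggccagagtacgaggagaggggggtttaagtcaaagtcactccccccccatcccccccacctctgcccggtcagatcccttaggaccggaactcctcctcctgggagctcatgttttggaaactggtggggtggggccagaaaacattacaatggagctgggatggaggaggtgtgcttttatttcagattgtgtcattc
Steap4: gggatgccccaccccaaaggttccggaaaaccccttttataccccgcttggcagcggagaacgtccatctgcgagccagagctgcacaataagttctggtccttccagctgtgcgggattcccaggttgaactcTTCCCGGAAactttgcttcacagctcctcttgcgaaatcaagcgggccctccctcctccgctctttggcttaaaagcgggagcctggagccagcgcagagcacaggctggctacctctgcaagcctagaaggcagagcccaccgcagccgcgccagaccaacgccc

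In the first 4 hours all 9 genes had positive differences between IL-6 and the controls at 0 and 4 h, with a median of 0.81 log2 against -0.01 over all genes. For 8 of them all 4 IL-6 arrays lay above both controls, as for 6.28% of all genes, and the exception was Pim1. The genes were chosen with the difference between these arrays in view, so this is no support for them. In 5 of the 9, by the brightest probe set of each, all 12 stimulated arrays lay above all 5 controls from 0 h on. That held for 0.352% of all genes, and it again includes the arrays in view when the genes were chosen. Socs3, the STAT3 feedback inhibitor, differed by 3.51 in the same contrast and Cebpd, which encodes C/EBP delta, by 2.76.

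**Figure D1:**
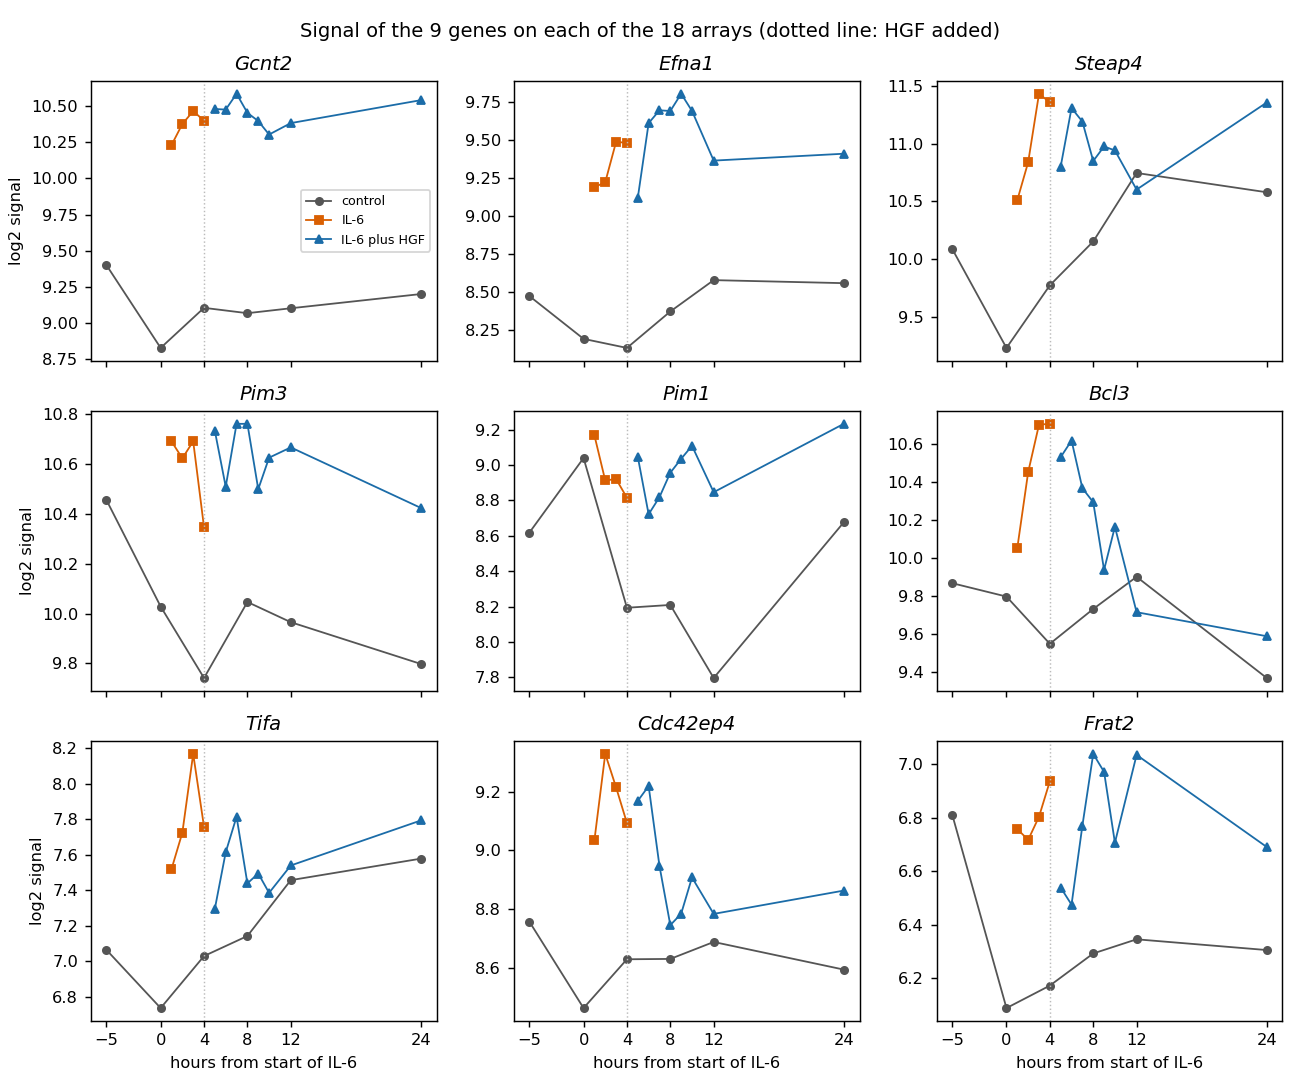
Log2 signal of the 9 genes (1 probe set each, 1 point per array) against hours from the start of IL-6, with controls in grey circles, IL-6 in orange squares and IL-6 plus HGF in blue triangles. Gcnt2 and Efna1 under stimulation stay above every control through 24 h, Bcl3 is at the control level by 12 h, and the later controls of Steap4 and Tifa lie above the earlier ones.

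Gcnt2 encodes the glycosyltransferase that makes the branched I antigen on surface glycans. Its log2 signal in control was 8.83, 9.10, 9.07, 9.10 and 9.20 at 0, 4, 8, 12 and 24 h. With IL-6 alone it was 10.23, 10.38, 10.47 and 10.40 at 1, 2, 3 and 4 h, 2.65-fold above the early controls on average. With IL-6 plus HGF it lay between 10.30 and 10.59, with a median of 10.47. All 12 stimulated arrays were above all controls and hardly differed among themselves. The difference from the early controls was 1.27 log2 at 1 h and 1.44 at 4 h.

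Efna1 encodes ephrin-A1, a membrane-anchored ligand of Eph receptors on neighbouring cells. Its signal in control was 8.19, 8.13, 8.37, 8.58 and 8.56 at 0, 4, 8, 12 and 24 h. With IL-6 alone it was 9.19, 9.22, 9.49 and 9.48 at 1 to 4 h, 2.28-fold above the early controls. With IL-6 plus HGF it ran from 9.12 at 5 h to 9.80 at 9 h, with a median of 9.65. No stimulated array overlapped a control. Its highest value came after HGF had been added, and its control at 24 h was 0.37 above that at 0 h.

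Steap4 encodes a metalloreductase that reduces iron and copper. Its control signal was 9.23, 9.77, 10.15, 10.75 and 10.58 at 0, 4, 8, 12 and 24 h, with the control at 24 h 1.35 above that at 0 h, the widest such gap among the 9 genes. With IL-6 alone it was 10.51, 10.84, 11.43 and 11.36 at 1 to 4 h, a 2.89-fold difference from the early controls (1.53 log2). Against all 5 controls from 0 h on the difference was 0.94 log2. With IL-6 plus HGF it lay between 10.60 at 12 h and 11.36 at 24 h, with a median of 10.96. Here 10 of 12 stimulated arrays were above all 5 controls, and the array at 12 h was below its own control. At the other probe set of Steap4 7 of 12 were above them, and the 12 h array was again below its control.

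Pim1 and Pim3 encode kinases of the PIM family, which act on survival and growth and need no activation by phosphorylation. Pim3 was at 10.03, 9.74, 10.05, 9.97 and 9.80 in control at 0, 4, 8, 12 and 24 h. It was at 10.69, 10.62, 10.69 and 10.35 with IL-6 at 1 to 4 h, and between 10.42 and 10.76 with IL-6 plus HGF (median 10.64). All 12 stimulated arrays were above the 5 controls from 0 h on, but the control at -5 h, at 10.45, lay above the lowest of them. Pim1 was at 9.04, 8.19, 8.21, 7.80 and 8.68 in control, so the control at 0 h was the highest of the 5. With IL-6 it was at 9.17, 8.91, 8.92 and 8.81, and only the array at 1 h was above the control at 0 h. With IL-6 plus HGF it lay between 8.72 and 9.23 (median 9.00), so those arrays overlapped the control at 0 h. Only 4 of the 12 stimulated arrays of Pim1 were above all 5 controls from 0 h on. Against the control at 4 h the IL-6 array of the same hour was higher by 0.62. Without the control at 4 h the mean difference of Pim1 in the first hours turned from 0.34 to -0.09, without the control at 0 h it was 0.76, and against all 5 controls it was 0.57, so its value and sign depended on which controls were used.

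Bcl3 encodes an atypical IkB protein that works in the nucleus with NF-kB p50 and p52. Its control signal was 9.80, 9.55, 9.73, 9.90 and 9.37 at 0, 4, 8, 12 and 24 h. With IL-6 it was at 10.05, 10.45, 10.70 and 10.71, each array above the one before, and was 0.38 above the early controls at 1 h and 1.03 above them at 4 h. With IL-6 plus HGF it lay between 9.59 at 24 h and 10.62 at 6 h (median 10.23), so the last arrays overlapped the controls. Tifa encodes an adaptor that binds TRAF proteins upstream of NF-kB. It was at 6.74, 7.03, 7.14, 7.46 and 7.58 in control and at 7.52, 7.72, 8.17 and 7.76 with IL-6. With IL-6 plus HGF it lay between 7.30 and 7.81 (median 7.52), and only 3 of those 8 arrays were above the 3 later controls. Its control at 24 h was 0.84 above that at 0 h, and its early difference was 0.91 against the controls at 0 and 4 h and 0.60 against all 5.

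Cdc42ep4 encodes an effector of the small GTPase CDC42, which shapes actin. It was at 8.46, 8.63, 8.63, 8.69 and 8.59 in control and peaked at 2 h, at 9.03, 9.33, 9.21 and 9.09 with IL-6. With IL-6 plus HGF it ran from 9.22 at 6 h down to 8.74 at 8 h (median 8.88). All 12 stimulated arrays were above the 5 controls from 0 h on, the later ones by little, and the control at -5 h stood at 8.76. At the other probe set of Cdc42ep4 only 8 of the 12 were above those 5 controls. Frat2 encodes a protein that binds GSK3 and favours Wnt signalling, and it had the lowest mean signal of the 9. It was at 6.09, 6.17, 6.29, 6.35 and 6.31 in control, at 6.76, 6.72, 6.80 and 6.94 with IL-6, and between 6.48 and 7.04 with IL-6 plus HGF (median 6.74). Its lowest stimulated arrays were those at 5 and 6 h, just after HGF, and none reached the 5 controls from 0 h on, although the control at -5 h, at 6.81, was as high as the stimulated arrays.

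Within the 4 IL-6 hours the highest array of the probe set used was that at 1 h for Pim1, at 2 h for Cdc42ep4, at 3 h for Gcnt2, Efna1, Steap4 and Tifa, and at 4 h for Bcl3 and Frat2. Pim3 was equal at 1 and 3 h to 2 decimals. Both probe sets of Pim1, Cdc42ep4, Efna1 and Steap4 had the same highest hour, whereas those of Gcnt2 and Pim3 did not. These hours were not tested. The largest difference from the mean of the early controls on any 1 array was 1.93, for Steap4 at 3 h. From the IL-6 array at 4 h to the first array with HGF at 5 h, Steap4 differed by -0.56, Tifa by -0.46, Frat2 by -0.40 and Efna1 by -0.36, while Pim3 differed by 0.39 and Pim1 by 0.23. These are single arrays, and no spread can be put beside such steps. At 6 h Steap4 was at 11.31, Tifa at 7.61, Frat2 at 6.48 and Efna1 at 9.61. Their values at 4 h, in that order, were 11.36, 7.76, 6.94 and 9.48.

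IL-6 plus HGF was then set against control at 8, 12 and 24 h, the hours measured in both, to ask which of the genes were still higher. Gcnt2, Efna1, Pim3, Pim1 and Frat2 were higher, and Steap4, Bcl3, Tifa and Cdc42ep4 did not pass, which does not show that they were equal. These 5 of 9 stand beside 2.53% of all genes called higher in the same limma fit, and 0 of 9 were lower against 6.46% of all genes. The later controls also entered an earlier comparison of IL-6 with all 5 controls, in which Gcnt2, Efna1, Pim3 and Cdc42ep4 stood out, so this test is not fully separate from the choice of genes.

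At those hours Gcnt2 was 2.53-fold higher, by 1.34 ± 0.07 log2 (SE, 3 pairs, limma adjusted p = 0.0013), with pairs of 1.39, 1.28 and 1.34 at 8, 12 and 24 h. It ranked 8 among 18193 genes by p. Efna1 was 1.98-fold higher, by 0.99 ± 0.12 (adjusted p = 0.0063), with 1.32, 0.79 and 0.85. Pim1 was 1.72-fold higher, by 0.78 ± 0.11 (0.0097), with 0.75, 1.05 and 0.56. Pim3 was 1.60-fold higher, by 0.68 ± 0.07 (0.0051), with 0.71, 0.70 and 0.62. Frat2 was 1.52-fold higher, by 0.61 ± 0.09 (0.0145), with 0.75, 0.69 and 0.39. Each of these 5 was higher in 3 of 3 pairs, as were 7 of the 9 genes and 23.6% of all genes. None of the 8 arrays with IL-6 plus HGF reached down to any of the 3 later controls for these 5. That separation held for 6 of the 9 genes, Cdc42ep4 included, and for 3.39% of all genes. For Pim1 the lowest of those 8 arrays stood at 8.72, close to its control at 24 h at 8.68. At the other probe set of Cdc42ep4 only 4 of the 8 were above the 3 later controls.

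Without the hour as a block the limma fit of the same 6 arrays kept Gcnt2 (adjusted p = 0.0069) and Efna1 (0.0269), while Pim3 (0.0619), Frat2 (0.0726) and Pim1 (0.190) missed the threshold. Frat2 also missed it without the pair at 8 h (adjusted p = 0.0685) or at 12 h (0.0623).

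The other genes had smaller or uneven differences. Steap4 differed by 0.44 ± 0.18 (SE, 3 pairs, limma adjusted p = 0.182, 95% interval 0.02 to 0.86), with pairs of 0.70, -0.14 and 0.78. It passed without the pair at 12 h, at 0.74 (adjusted p = 0.0178), and at 0.66 with a spline of the hour over 17 arrays (0.0046). Bcl3 differed by 0.20 (-0.13 to 0.53, adjusted p = 0.422), with 0.56, -0.19 and 0.22. Tifa differed by 0.20 (0.01 to 0.39, 0.182), and Cdc42ep4 by 0.16 (-0.02 to 0.34, 0.259), although it passed with the spline at 0.29 (0.0228). The intervals of Bcl3, Tifa and Cdc42ep4 end below the estimates of Efna1, Pim1 and Pim3, but the differences between genes were not tested.

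**Figure D2:**
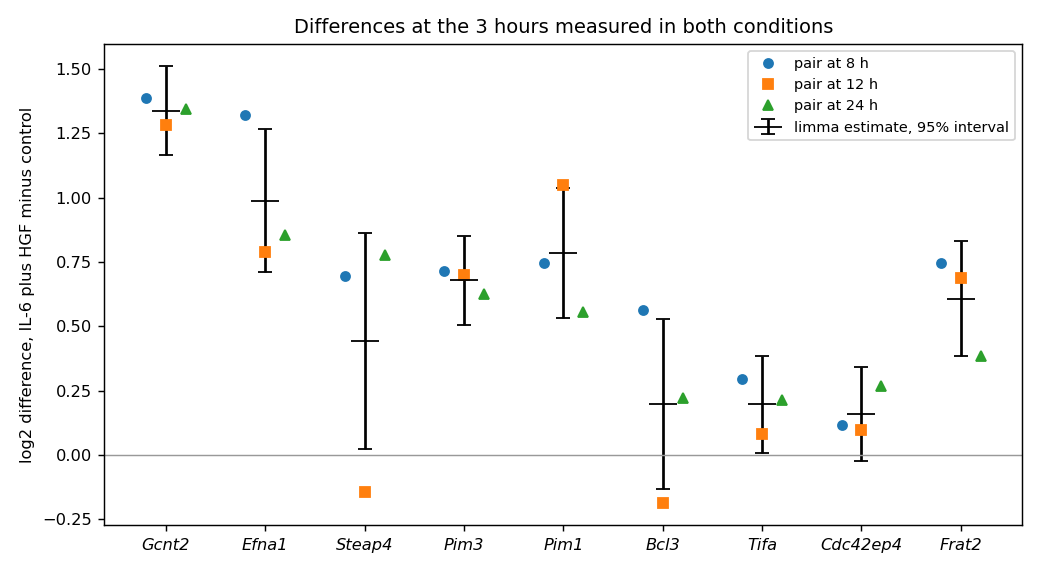
Log2 difference between IL-6 plus HGF and control for each gene at 8 h (circles), 12 h (squares) and 24 h (triangles), with the limma estimate and its 95% interval (black bars). All pairs of Gcnt2 lie between 1.28 and 1.39, whereas the pairs of Steap4 run from -0.14 to 0.78.

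The smaller differences at 12 h came about in different ways, as the stimulated and control arrays show. From 4 to 12 h the stimulated signal of Bcl3 differed by -0.99 and its control by 0.35. For Cdc42ep4 these values were -0.31 and 0.06, but -0.36 and 0.26 at its other probe set. For Tifa the stimulated arrays differed by -0.22 and the controls by 0.43, so the larger part lay in the control. Steap4 had both, with -0.75 in the stimulated arrays and 0.97 in the controls. By 24 h stimulated Steap4 was back at its 4 h level (-0.001) while its control was still 0.81 higher. Gcnt2 moved by -0.02 and -0.003 from 4 to 12 h.

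The 8 arrays with IL-6 plus HGF were then used to ask which genes rose or fell between 5 and 24 h. Bcl3 fell, by 0.49 ± 0.08 log2 per doubling of the hour (SE, 8 arrays, limma adjusted p = 0.0039). It was the only member called: 1 of 9 fell, against 4.84% of all genes, and 0 of 9 rose, against 6.27% of all genes. Its signal was 10.53, 10.62, 10.37 and 10.29 at 5, 6, 7 and 8 h and 9.94, 10.16, 9.71 and 9.59 at 9, 10, 12 and 24 h. The slope of Bcl3 passed without each of the 8 arrays in turn. Set against the slope of the controls from 4 to 24 h, the difference for Bcl3 was -0.44 per doubling and did not pass (adjusted p = 0.485), in a fit that called 0 of the 9, 0.0605% of all genes as falling more or rising less, and 0.0989% in either direction.

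The slopes of the other genes did not pass. Gcnt2 had -0.003 per doubling (95% interval -0.14 to 0.13) and Efna1 -2.6e-04 (-0.25 to 0.25). Cdc42ep4 had -0.15 (-0.32 to 0.03, limma adjusted p = 0.306) and passed when its 2 probe sets were averaged, at -0.21 (0.0463). Pim3 had -0.11 (-0.25 to 0.04), and Pim1 0.14, Tifa 0.12, Frat2 0.09 and Steap4 0.08. Socs3, for reference, had -0.56 without passing (adjusted p = 0.0538), and Cebpd had -0.11.

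**Figure D3:**
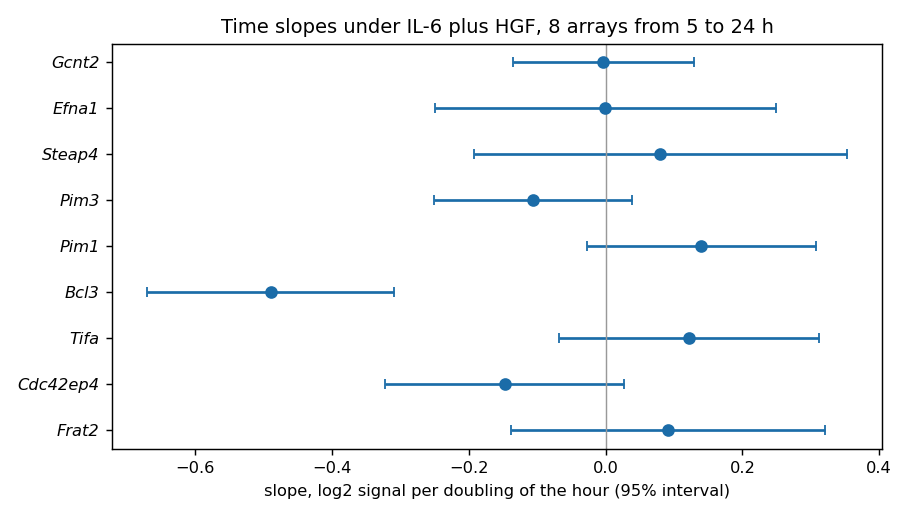
Slope of log2 signal per doubling of the hour under IL-6 plus HGF for the 9 genes, from 8 arrays at 5 to 24 h, with 95% intervals. Only the interval of Bcl3, from -0.67 to -0.31, lies away from 0.

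The 22 probe sets of the 9 genes read the same arrays, so they check the measurement rather than add samples. In the fit over all probe sets 13 of the 22 were higher at the matched hours, against 1.85% of all probe sets. For Gcnt2 6 of 8 probe sets passed, with differences from 1.08 to 2.04. The other two, 1450238_at and 1437607_at, differed by 0.03 and -0.01 and had the lowest mean signals of that gene, 5.32 and 2.97. The largest difference was at 1430826_s_at, at 2.04 ± 0.09 (SE, limma adjusted p = 0.0015). Both probe sets of Efna1 passed, at 0.99 and 1.05, and both of Pim1, at 0.78 and 0.59. Pim3 passed at 1437100_x_at (0.68) and 1451069_at (0.62), while the dim 1438956_x_at (mean 4.56) differed by -0.07. Both probe sets of Steap4 had 0.44. Cdc42ep4 had 0.16 at 1436801_x_at and 0.04 at 1416511_a_at. Bcl3, Tifa and Frat2 have a single probe set. In Affymetrix names the suffixes x and s mark probe sets that can bind other transcripts, which touches the values used for Pim3 and Cdc42ep4. It also touches 1430826_s_at, with the largest difference of Gcnt2, and 1421415_s_at. The probe set used for Gcnt2, 1425503_at, has neither suffix.

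**Figure D4:**
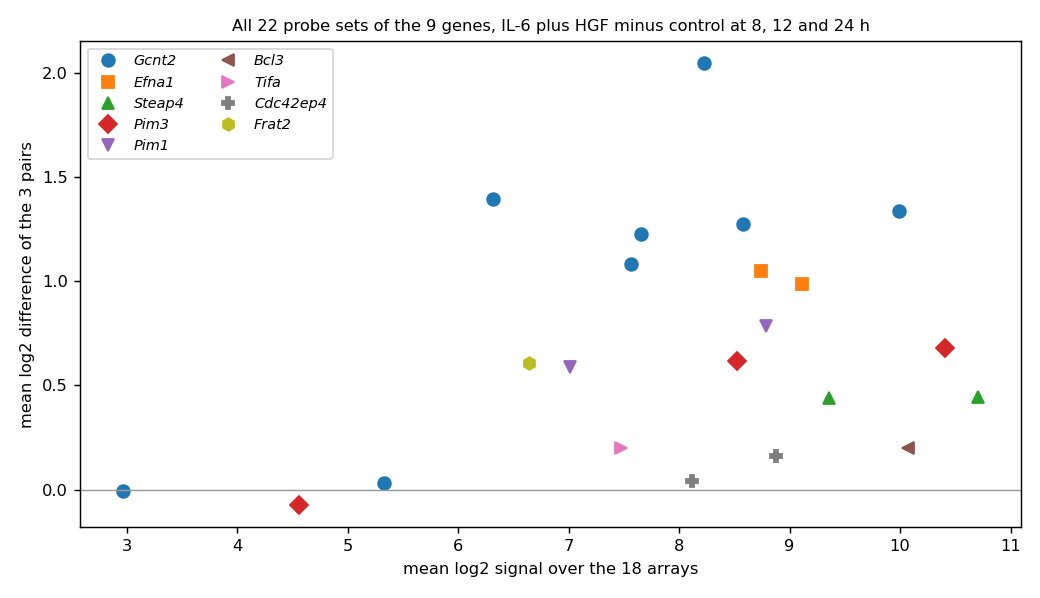
Mean log2 difference of the 3 pairs at 8, 12 and 24 h for all 22 probe sets, against their mean log2 signal over the 18 arrays, with a symbol per gene. The 3 probe sets with mean signals under 6 lie near 0, while the other 6 of Gcnt2 lie between 1.08 and 2.04.

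The untreated array at -5 h, which by the hours of the protocol precedes the starvation without dexamethasone, entered no fit. On it 8 of the 9 genes lay above the control at 0 h, as did 51.8% of all genes. The exception was Pim1, at 8.62 against 9.04. Steap4 stood at 10.09 against 9.23, Frat2 at 6.81 against 6.09, Gcnt2 at 9.40 against 8.83 and Pim3 at 10.45 against 10.03. For Gcnt2, Pim3, Cdc42ep4 and Frat2 that array lay above all 5 later controls, as for 19.9% of all genes. The value of Frat2 there was within the range of its IL-6 arrays, 6.72 to 6.94. It is a single array, so these differences have no replicate check.

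Over the 18 arrays, the genes whose profile lay closest to that of a member were sought for the 3 members with the widest range, as the root mean square difference of profiles centred on their own means. For Gcnt2 the closest was Efna1, at 0.22 log2, followed by Hilpda (0.32), a lipid droplet protein, and Junb (0.33), an AP-1 subunit. For Efna1 they were Gcnt2, Osmr (0.24), a receptor subunit for oncostatin M, and Rhob (0.26), a small GTPase. For Steap4 they were Glul (0.31), which makes glutamine, Tifa (0.31) and Efna1 (0.325). These profiles include the arrays in view when the members were chosen. A match between members is therefore a description and no support for them. The members' own deviations from their means were 0.63, 0.56 and 0.57. The matches of Steap4, and those of Gcnt2 to Hilpda and Junb, are looser than those of Efna1.

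Other genes of the pathway were counted at the matched hours from lists that leave out the 9 genes. All these lists were chosen with earlier results of these data known, and Nfkbiz is in 2 of them. The fit called 2.53% of all genes higher and 6.46% lower. Of 21 measured receptors, JAKs, STATs and their regulators 2 were higher and 2 lower, with a median of -0.005 against 0.01 over all genes. Osmr was higher by 0.72 ± 0.08 (SE, 3 pairs, limma adjusted p = 0.0051) and Stat3, the transcription factor itself, by 0.50 ± 0.08 (0.0170). Gab1, an adaptor of Met and gp130, was lower by 0.39 and Lifr, a receptor subunit that pairs with gp130, also by 0.39 (adjusted p = 0.0478). Lifr lost its call after quantile normalization or median centring. All 4 calls were lost without the hour block, those of Stat3, Gab1 and Lifr without the pair at 8 h or at 12 h, and those of Gab1 and Lifr also without the pair at 24 h. Stat3 and Lifr did not pass with all probe sets averaged, and Lifr did not in the 4 groups of 17 arrays. In the first 4 hours 0 of the 21 passed in limma, in a fit that called 0.022% of all genes higher and 0% lower, with 656 genes at an unadjusted p under 0.05. The values of Stat3 and Gab1 there were 0.52 and -0.26.

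Among 32 known targets of IL-6 and STAT3, the matched hours gave 13 higher and 1 lower, and the median was 0.26. In the same fit 2.53% of all genes were higher and 6.46% lower. Socs3 differed by 2.53 and Cebpd by 2.03. Cish, a STAT-induced feedback inhibitor, was higher by 1.07 ± 0.08 (limma adjusted p = 0.0017) and Junb by 1.23 ± 0.09 (0.0019). Without the hour block 5 were higher and 0 lower, and Cish missed the threshold (0.0780). In the first 4 hours 2 of the 32 were higher, Socs3 and Cebpd, with a median of 0.38. That list holds genes already known to move on these arrays and is not independent evidence.

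Paralogs of the 9 genes, such as other ephrins, Pim2, other STEAP reductases and Frat1, did not pass in the first 4 hours (0 of 21 in limma). At the matched hours 3 of 21 were higher and 0 lower, against 2.53% and 6.46% of all genes, with a median of 0.10. Steap1 was higher by 0.85 ± 0.09 (adjusted p = 0.0051) and Steap2 by 0.73 ± 0.12 (0.0173), with the largest pairs of Steap2 at 12 and 24 h, 0.89 and 0.92, against 0.38 at 8 h. Nfkbiz, like Bcl3 an atypical nuclear IkB protein, was higher by 0.86 ± 0.08 (0.0039). Steap1 and Steap2 lost their calls without the hour block (adjusted p = 0.118 and 0.387), Steap2 also without the pair at 12 h or at 24 h, and Steap2 and Nfkbiz in a fit of 4 groups over 17 arrays. Without the block 1 paralog was higher, and after median centring 6 were.

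Of 19 NF-kB subunits, inhibitors and TIFA pathway genes 1 was higher and 2 were lower at the matched hours (median 0.02). The same fit called 2.53% of all genes higher and 6.46% lower. The higher one was Nfkbiz, also counted among the paralogs. The lower ones were Tnfaip3, the feedback inhibitor A20, by -0.51 ± 0.09 (SE, limma adjusted p = 0.0181), and Ikbkg, a subunit of the IkB kinase, by -0.46 ± 0.08 (0.0190). Both were lost without the hour block and without the pair at 8 h or at 24 h, and Tnfaip3 also in both fits over 17 arrays (4 groups, and the spline of the hour). In the first 4 hours 0 of 19 passed, with Tnfaip3 at -0.59 and Tnip1 at -0.19. Of 21 measured partners by binding or by function, among them Eph receptors, CDC42 and the GSK3 kinases, 1 passed at the matched hours. This was Epha1, a receptor for ephrin-A ligands. It was lower by 1.05 ± 0.25 (adjusted p = 0.0488), and that call was lost in 8 of 11 alternatives, among them quantile normalization, centring and the fit without the hour block.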

How the data were processed

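RNA of 18 hepatocyte dishes was measured on Affymetrix mouse arrays with 45101 probe sets. The authors deposited 1 value per probe set and array. These deposited values were taken as log2 signal because they run from 2.095 to 15.049; how the authors summarized and normalized them is not given in the sources used here. GEO's platform annotation paired 34958 probe sets with 1 symbol, 932 with several and 9211 with none; 34754 were matched to RefSeq (GRCm38.p6) by Entrez number. Each of 18193 genes was read from its brightest probe set by the mean of 18 arrays. limma 3.58.1 in R 4.3.3 was fitted over all genes with Benjamini-Hochberg adjustment and a threshold of 0.05. IL-6 plus HGF was compared with control at 8, 12 and 24 h with the hour as a block (6 arrays, 2 residual degrees of freedom). Slopes on log2 hour used 8 arrays (6 degrees of freedom), and IL-6 alone was set against the controls at 0 and 4 h in a fit of 17 arrays (13 degrees of freedom). The hour pairs the samples because both arms were harvested at it; the labels carry no replicate numbers. The method was tested on simulated data. The number of arrays limits the precision.

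The 9 genes and all lists were chosen with earlier results of these data known. The lists were IL-6 receptor and JAK-STAT genes, IL-6 and STAT3 targets, NF-kB genes, paralogs, partners, and cell markers. From each list up to 4 genes past the threshold were named by smallest adjusted p, or 2 by smallest p where none passed, and for the 3 members with the widest range the 3 genes of closest profile. The alternatives were quantile normalization, median centring, leaving out genes under the 40th percentile, the average of a gene's probe sets, all probe sets as rows, robust variance with an intensity trend, no hour block, 4 groups or a spline over 17 arrays, a minimum difference of 1, other slopes, and leaving out each pair or array.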

Additional observations from a re-analysis of the deposited data

How the results depend on the processing

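At the matched hours 1637 genes passed. There were 142 without the hour block, 3152 with the spline of the hour, 199 with a difference of at least 1, and 585 to 843 with 1 pair left out (fewest without 12 h). Of the 9 genes 5 were higher, against 2 without the block, 1 with a difference of at least 1, 7 with the spline and 4 to 5 with a pair left out. Between 5 and 24 h 2020 genes passed, against 18 for the slope difference from control and 244 (without 24 h) to 3095 (without 10 h) with 1 array left out. The single falling member became 2 with all probe sets averaged and 0 for the slope difference. In the first 4 hours 4 genes passed, against 12 over all probe sets, 22 against all 5 controls and 3 to 5 with 1 array left out. Against all 5 controls the early difference of Steap4 went from 1.53 to 0.94, of Tifa from 0.91 to 0.60 and of Pim1 from 0.34 to 0.57. No difference at the matched hours changed sign in any alternative for the 9 genes. Slopes near 0 did: Efna1 had 0.0302 as the mean of its probe sets, Gcnt2 0.0021 on the hour itself, and in the slope difference Steap4 had -0.27, Pim1 -0.0033 and Tifa -0.11. With 1 array left out the slopes of Gcnt2 ran from -0.14 to 0.0134, of Efna1 from -0.16 to 0.20 and of Steap4 from -0.26 (without 24 h) to 0.16, and the early difference of Pim1 ran from -0.0854 (without the control at 4 h) to 0.76. The cause was not tested. Quantile normalization and centring moved the median of all genes by at most 0.05.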
